A study of Mus musculus with 24 samples.

Results

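The miR-129 family was measured as 5 mature microRNAs in the brain of neonatal mice with hypoxic-ischemic brain injury (HIBI). The members were mmu-miR-129-5p, mmu-miR-129-1-3p, mmu-miR-129-2-3p, mmu-miR-129b-5p, and mmu-miR-129b-3p, taken by their names, and they were 5 of the 1531 mouse miRNAs listed in the count tables. The family was selected on its difference between HIBI and sham in the cerebellum, where 2 members stood out, so that difference is described here without a test. MiRNA-Seq libraries came from the right cerebellum, striatum/thalamus, and cortex of 8 CD1 pups of both sexes at postnatal day 9. In 4 pups, the HIBI group (pups 1, 4, 5, and 7), the right common carotid artery was cauterized and after 2 h of recovery the pups breathed 8% oxygen for 30 min. In the other 4, the sham control group (pups 2, 3, 6, and 8), the artery was exposed and left intact and the same 30 min were spent in normoxia. Both groups received isoflurane and bupivacaine, and all tissue was taken 30 min after hypoxia or normoxia. Each of the 24 libraries was made from 200 ng of RNA and held between 1254185 and 3406624 counts on mouse miRNAs.

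A miRNA is cut from a hairpin transcript, and either arm of the hairpin can be loaded into a silencing complex, where the seed at its 5′ end pairs with target mRNAs. MiR-129-5p is known as a neuronal miRNA that is found in dendrites, where it represses translation of the potassium channel Kv1.1 while mTORC1 is active, and it is needed for the weakening of excitatory synapses after prolonged activity. The mouse makes the same miR-129-5p from a pair of hairpins, Mir129-1 and Mir129-2, while the opposite arms of these hairpins carry separate names, miR-129-1-3p and miR-129-2-3p. Mir129b is read from the DNA strand opposite to Mir129-2.

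The mature sequences, from RefSeq on GRCm38.p6, are shown because they tell which members can share targets and which could share reads. They were found for 4 of the 5 members. Capitals mark the seed, bases 2 to 8.
mmu-miR-129-5p: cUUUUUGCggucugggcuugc
mmu-miR-129-2-3p: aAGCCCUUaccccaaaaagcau
mmu-miR-129b-5p: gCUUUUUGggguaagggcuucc
mmu-miR-129b-3p: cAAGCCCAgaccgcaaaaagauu
No other mature mouse miRNA in the reference table had any of these 4 seeds. That reference held sequences for 1291 of the 1531 mouse miRNAs listed, without miR-129-1-3p. The seed of miR-129b-5p was the same as bases 1 to 7 of miR-129-5p, so that these members differed in register by 1 base. No seed was shared among these 4 members.

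The hairpins are shown with the mature miRNAs named above in capitals. Mir129-2 lies at chr2:94241364-94241453 on the minus strand, in an intron of the long noncoding RNA gene Mir670hg, which has the same strand. Mir129b lies at chr2:94241378-94241442 on the plus strand, inside the same stretch. Mir129-1 lies at chr6:29022619-29022691 on the plus strand, in an exon of the long noncoding RNA gene Gm3294.
Mir129-2: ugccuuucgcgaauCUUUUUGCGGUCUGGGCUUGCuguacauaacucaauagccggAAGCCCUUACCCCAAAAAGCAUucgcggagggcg
Mir129b: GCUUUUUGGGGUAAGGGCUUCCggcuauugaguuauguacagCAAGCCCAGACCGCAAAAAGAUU
Mir129-1: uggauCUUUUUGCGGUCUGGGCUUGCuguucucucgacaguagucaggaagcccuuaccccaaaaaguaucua
MiR-129b-5p was complementary to miR-129-2-3p over 20 bases without a mismatch, and miR-129b-3p was complementary to miR-129-5p over 20 bases. The Mir129-1 hairpin held the sequence of miR-129-2-3p from its base 49 on with 21 of 22 bases matching, and the substitution was C20U, counted from the 5′ end of miR-129-2-3p. Bases 2 to 8 of that stretch, on the arm of miR-129-1-3p, were therefore the same as the seed of miR-129-2-3p. Reads of miR-129-1-3p and miR-129-2-3p that end before this base cannot be told apart, and how the counting placed them is not given in the sources used here. The host transcript of Mir129-2 also carries miR-670, whose arms had 106 and 5 counts over the 24 libraries.

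**Figure D1:**
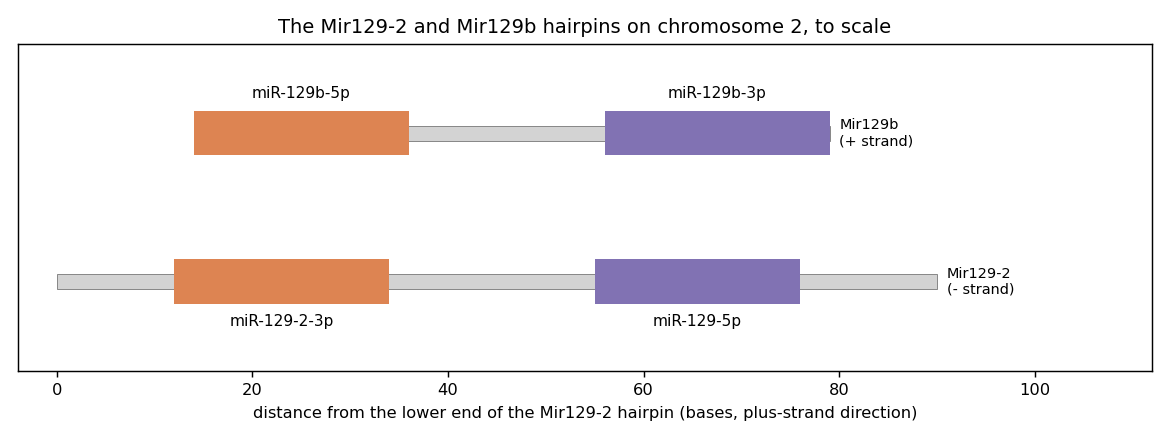
Map of the Mir129-2 and Mir129b hairpins (grey) with their mature miRNAs (coloured blocks), drawn to scale along the plus strand of chromosome 2 as the distance in bases from the lower end of Mir129-2. Blocks of one colour overlap on opposite strands, each pair by 20 bases.

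All 5 members were above 10 CPM, counts scaled to a common library size, on average in every region. MiR-129-5p held 77.2% of the counts of the family over the 24 libraries, miR-129-2-3p 13.6%, miR-129-1-3p 5.16%, miR-129b-3p 3.28%, and miR-129b-5p 0.784%. The mature miRNAs printed above are 21 to 23 bases long, so no correction for length was made, and the efficiency with which each miRNA enters a library was not measured. The whole family made up 0.534% ± 0.0626 (SD, n = 4) of miRNA counts in the sham cerebellum, 1.22% ± 0.109 in the sham striatum/thalamus, and 0.889% ± 0.0590 in the sham cortex. In HIBI pups its share was 0.701% ± 0.188 for the cerebellum, 1.15% ± 0.104 for the striatum/thalamus, and 0.876% ± 0.0888 for the cortex. Tissue of a whole region was sequenced, so a larger share of cells that express a miRNA and more of it per cell cannot be told apart. The lowest count of any member in a library was 56, for miR-129b-5p in the cerebellum of sham pup 3, so its values carry the largest counting error.

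To compare regions, CPM was scaled by TMM (trimmed mean of M-values) over all 24 libraries, and values follow the order of the pup numbers. In sham pups, miR-129-5p was at 4664, 3720, 4402 and 5463 CPM in the cerebellum, 9929, 8704, 9892 and 9482 CPM in the striatum/thalamus, and 6941, 7121, 6948 and 8177 CPM in the cortex. Every sham cerebellum was below every sham cortex, and every sham striatum/thalamus was above every sham cortex. In HIBI pups, it was at 3818, 5628, 3858 and 4654 CPM in the cerebellum, 6367, 10706, 8292 and 7962 CPM in the striatum/thalamus, and 6295, 7235, 7547 and 6421 CPM in the cortex. There the striatum/thalamus and the cortex overlapped and all libraries of both regions were above the cerebellum.

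MiR-129-2-3p is the arm opposite to miR-129-5p in Mir129-2. In sham pups it was at 521, 476, 815 and 662 CPM in the cerebellum, 2103, 1590, 1445 and 1834 CPM in the striatum/thalamus, and 706, 887, 847 and 813 CPM in the cortex. The striatum/thalamus was the highest region with no overlap, and the cerebellum and cortex overlapped. In HIBI pups it was at 1666, 2399, 709.9 and 567 CPM in the cerebellum, 3404, 2894, 1838 and 1429 CPM in the striatum/thalamus, and 1251, 1009, 814 and 554 CPM in the cortex. The striatum/thalamus was again above the cortex with no overlap, and the cerebellum overlapped with both. In each region pups 1 and 4 were above pups 5 and 7.

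MiR-129-1-3p, the corresponding arm of Mir129-1, had another order of regions. In sham pups it was at 231, 262, 262 and 279 CPM in the cerebellum, 324, 278, 255 and 296 CPM in the striatum/thalamus, and 647, 687, 433 and 904 CPM in the cortex, and in HIBI pups at 501, 735, 193 and 215 CPM in the cerebellum, 474, 494, 279 and 235 CPM in the striatum/thalamus, and 944, 653, 774 and 481 CPM in the cortex. The cortex was the highest region in the mean of both groups. In sham pups all 4 cortices were above all other libraries, whereas the cerebellum and striatum/thalamus overlapped.

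The members from the opposite strand had the same order of mean levels in sham pups as their partners. In sham pups miR-129b-3p averaged 152 ± 33.7 CPM (SD, n = 4) in the cerebellum, 394 ± 30.1 CPM in the striatum/thalamus, and 298 ± 29.7 CPM in the cortex. MiR-129b-5p averaged 34.0 ± 8.30 CPM, 90.4 ± 7.59 CPM, and 54.6 ± 7.61 CPM in the same order. In both, the 4 sham striatum/thalamus libraries were above the 4 sham cortices, and these were above the 4 sham cerebella.

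**Figure D2:**
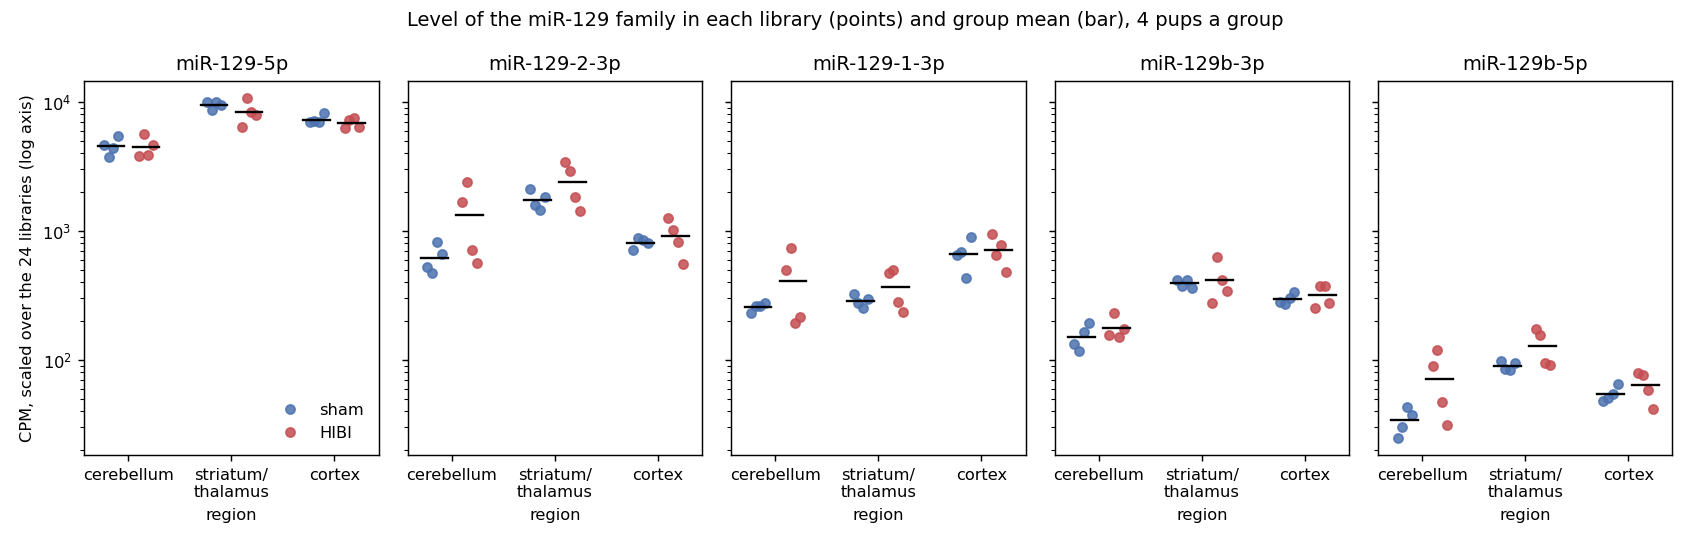
CPM of each member (scaled over the 24 libraries, log axis) by region for sham and HIBI pups, with a point per library and a bar at the group mean. MiR-129-1-3p was highest in the cortex, while the other 4 members had their highest group means in the striatum/thalamus.

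Regions were compared by edgeR's quasi-likelihood test in a model of all 24 libraries, with a fold change above 1.5 and a Benjamini-Hochberg adjusted p-value under 0.05 over the 435 miRNAs tested. Between cortex and striatum/thalamus in sham pups, 2 of the 5 members differed, beside 30.8% of all miRNAs tested. On the log2 scale miR-129-1-3p was higher in the cortex by 1.21 ± 0.33 (SE, adjusted p = 0.00715, edgeR), a 2.32-fold difference. MiR-129-2-3p was lower in the cortex, with a log2 difference of -1.10 ± 0.35 (adjusted p = 0.0173, edgeR). MiR-129b-5p did not pass, with -0.73 ± 0.32 (adjusted p = 0.0843, edgeR), but passed with the pup as a block (adjusted p = 0.0145, edgeR, with a log2 difference of -0.74). MiR-129-5p at -0.38 ± 0.17 and miR-129b-3p at -0.41 ± 0.22 did not pass. Without sham pup 8 no member passed (adjusted p = 0.0919 for miR-129-1-3p and 0.0620 for miR-129-2-3p, edgeR), and without sham pup 2 miR-129-2-3p did not (adjusted p = 0.117, edgeR). MiR-129b-5p passed as well without HIBI pup 1 or 7 and with the 12 sham libraries alone (log2 differences of -0.83, -0.73, and -0.84).

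In HIBI pups 3 of the 5 members differed between cortex and striatum/thalamus, beside 36.1% of all miRNAs tested. The log2 difference was 0.95 ± 0.33 for miR-129-1-3p (adjusted p = 0.0283, edgeR), -1.40 ± 0.35 for miR-129-2-3p (adjusted p = 0.00443), and -1.01 ± 0.32 for miR-129b-5p (adjusted p = 0.0187). MiR-129-1-3p was again higher in the cortex and the other 2 were lower there. MiR-129-1-3p lost the call without HIBI pup 5 or 7 (adjusted p = 0.0851 and 0.0556, edgeR) and with the 12 HIBI libraries alone (adjusted p = 0.0600), and miR-129b-5p without HIBI pup 1 (adjusted p = 0.0739), with the HIBI libraries alone (0.0641), and without the filter on low counts (0.140).

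The cerebellar libraries entered the contrast by which the family was chosen, so differences from the cerebellum are given as a description. In sham pups, 3 members passed the same criteria as higher in the cortex than in the cerebellum (miR-129-5p, miR-129-1-3p, and miR-129b-3p), where 54.9% of all miRNAs tested passed in either direction. In the striatum/thalamus all but miR-129-1-3p were higher than in the cerebellum, where 60.7% passed. In HIBI pups, 2 members passed for the cortex (miR-129-5p and miR-129b-3p) beside 34% of all tested, and the same 4 as in sham pups for the striatum/thalamus beside 53.6%. In the striatum/thalamus of HIBI pups, miR-129-2-3p and miR-129b-5p lost the call without HIBI pup 1, 5, or 7, and miR-129-2-3p also without sham pup 2, 6, or 8. In the cortex of HIBI pups, miR-129-5p and miR-129b-3p lost it without HIBI pup 5, miR-129-5p without HIBI pup 1, and miR-129-1-3p passed without HIBI pup 4. With the pup as a block, miR-129b-5p in sham pups (log2 difference 0.69) and miR-129-1-3p in HIBI pups (0.98) passed in the cortex as well.

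A ratio of 2 members within a library does not depend on how libraries are scaled. The ratios were tested with two-sided exact permutation tests, and p-values were adjusted over 20 tests, 12 of which did not use the cerebellum. Of these 12, 3 passed, and ratios that use the cerebellum are given as a description. In sham pups the counts of miR-129-1-3p were 44.3%, 55.1%, 32.2% and 42.1% of those of miR-129-2-3p in the cerebellum. They were 15.4%, 17.5%, 17.7% and 16.1% in the striatum/thalamus and 91.7%, 77.5%, 51.2% and 111% in the cortex. In HIBI pups they were 30.1%, 30.7%, 27.2% and 37.9% in the cerebellum. They were 13.9%, 17.1%, 15.2% and 16.5% in the striatum/thalamus and 75.5%, 64.8%, 95.1% and 87% in the cortex. Over both groups the cortex at 81.7% ± 18.7 (SD, n = 8) and the striatum/thalamus at 16.2% ± 1.28 did not overlap. The log2 difference was 2.31, a 4.94-fold change in the balance of the 2 arms, in 8 of 8 pups (exact permutation p = 0.000155, the smallest that 8 against 8 allows, adjusted p = 0.00155). This log2 difference ranged from 2.24 to 2.42 when each of the 8 pups was left out in turn, and was 2.26 in sham pups and 2.35 in HIBI pups. The cerebellum averaged 37.5% ± 9.36. Since the sequences of these arms differ by 1 base, part of the counts of either may be reads of the other, and this was not tested.

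The counts of miR-129-2-3p relative to miR-129-5p also differed between the forebrain regions. Since Mir129-1 and Mir129-2 give the same miR-129-5p, this ratio is not the balance of arms within Mir129-2 alone. They averaged 24.3% ± 12.3 (SD, n = 8) in the striatum/thalamus but 12.2% ± 3.50 in the cortex, with a log2 difference of -0.91 for cortex minus striatum/thalamus and a lower cortex in 8 of 8 pups (exact permutation p = 0.00109, adjusted p = 0.00435). In the cerebellum they averaged 21.4% ± 13.7. MiR-129b-5p, as a share of miR-129-2-3p, was 6.97% ± 0.785 in the cortex and 5.38% ± 0.507 in the striatum/thalamus, higher in the cortex in 8 of 8 pups (log2 difference 0.37, exact permutation p = 0.000932, adjusted p = 0.00435). The ratio of the arms of Mir129b, miR-129b-3p to miR-129b-5p, was 537% ± 105 in the cortex and 391% ± 102 in the striatum/thalamus, higher in the cortex in 8 of 8 pups (log2 difference 0.49). It did not pass the adjustment without pairing (exact permutation p = 0.0185, adjusted p = 0.0528). It passed with the regions paired by pup (exact paired p = 0.00781, the smallest that 8 pups allow, adjusted p = 0.0195). The 3 ratios that passed without pairing treat the regions of a pup as independent. Paired by pup, each of them had the same exact paired p = 0.00781 and adjusted p = 0.0195.

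**Figure D3:**
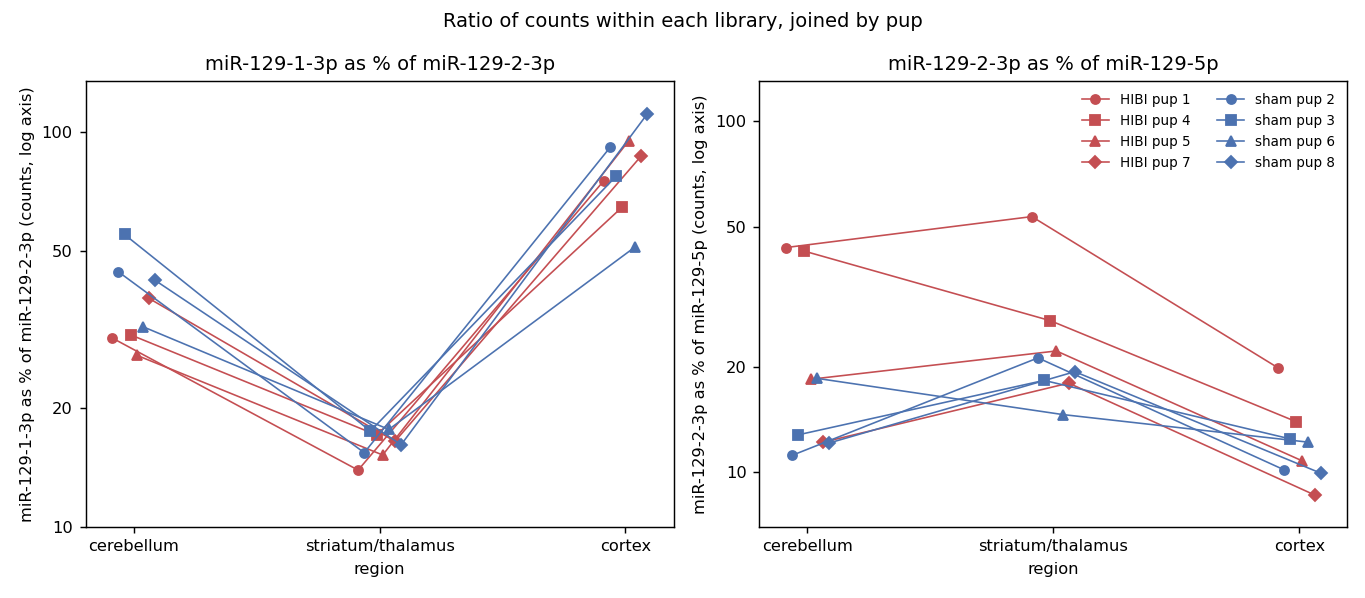
Counts of miR-129-1-3p as a percent of miR-129-2-3p (left) and of miR-129-2-3p as a percent of miR-129-5p (right) on log axes, a point per library with lines joining the regions of a pup. On the left all 8 lines rise from striatum/thalamus to cortex, and on the right the 4 HIBI lines keep the order of pups 1, 4, 5, and 7 in all 3 regions.

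To ask whether the family differed after HIBI, libraries were scaled within each region, and HIBI and sham pups were set against each other with the same edgeR test. A miRNA passed where its change exceeded 1.5-fold at an unadjusted p-value below 0.05, and miRNAs averaging above 10 CPM were tested. In the striatum/thalamus none of the 5 members passed, beside 2.75% of the 436 miRNAs tested. On the scale of that region, miR-129-5p was at 10300, 9070, 10276 and 9780 CPM in sham pups and 6296, 9859, 8312 and 7885 CPM in HIBI pups. Of the HIBI libraries 3 were below all sham libraries, but pup 4 was not, and the log2 fold change was -0.29 ± 0.18 (SE, adjusted p = 0.980, edgeR). MiR-129-2-3p at 0.36 ± 0.27, miR-129b-5p at 0.41 ± 0.25, and miR-129-1-3p at 0.26 ± 0.25 did not pass either. Without HIBI pup 7, miR-129-2-3p and miR-129b-5p met the criteria with log2 fold changes of 0.63 and 0.63, while their adjusted p-values were 0.900 (edgeR).

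In the cortex none of the 5 members passed, beside 3.41% of the 410 miRNAs tested. The log2 fold changes ranged from -0.09 ± 0.14 for miR-129-5p to 0.23 ± 0.25 for miR-129b-5p, and the lowest adjusted p-value was 0.961 (edgeR). The HIBI and sham libraries overlapped for each member in each region, whereas they did not for 3.69% of all miRNAs tested for the cerebellum, 2.29% for the striatum/thalamus, and 4.15% for the cortex. The difference of the injury effect between cortex and striatum/thalamus was called for 0% of the 435 miRNAs tested by edgeR, 7 of which had an unadjusted p-value under 0.05, and DESeq2 called none and had 8 under 0.05. All members had an adjusted p-value of 0.991 there (edgeR), and the largest difference was -0.30 ± 0.49 for miR-129-2-3p on the log2 scale.

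In the cerebellum, the contrast by which the family was selected, 2 members met the criteria, beside 7.83% of the 434 miRNAs tested, and no p-value is given for a member. Over all 434, none had an adjusted p-value under 0.05, and the smallest was 0.432 (edgeR). On the scale of that region, miR-129-2-3p was at 499.6, 518, 844 and 629.9 CPM in sham pups and 1794, 2325, 724 and 582 CPM in HIBI pups. Pups 1 and 4 were above every sham pup, and pups 5 and 7 were within the sham range. The log2 fold change was 1.12 ± 0.40 (SE), or 2.18-fold. MiR-129b-5p was at 23.7, 32.7, 45.1 and 35.8 CPM in sham pups and 96.9, 115, 47.8 and 32.1 CPM in HIBI pups, with pups 1, 4, and 5 above every sham pup. Its log2 fold change was 1.09 ± 0.40.

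Just outside the criteria was miR-129-1-3p, at 221, 285, 271 and 265 CPM in sham pups and 540.0, 713, 197 and 221 CPM in HIBI pups. Pups 1 and 4 were again the high ones, pups 5 and 7 were below every sham pup, and the log2 fold change was 0.68 ± 0.37. MiR-129b-3p had a log2 fold change of 0.25 ± 0.23. MiR-129-5p, the most abundant member, averaged 4570 ± 475 CPM in sham and 4569 ± 694 CPM in HIBI pups (SD, n = 4), and the sign of its log2 fold change of -0.0001 ± 0.19 depended on the scaling. Without HIBI pup 4, no member met the criteria (log2 fold changes of 0.73 and 0.78 for miR-129-2-3p and for its partner miR-129b-5p). Without sham pup 2, miR-129b-5p did not meet them (0.95), and without HIBI pup 5 or 7 miR-129-1-3p met them as well (0.92 and 0.89). In the model of 24 libraries, the injury effect on miR-129-2-3p in the cortex minus that in the cerebellum was -0.95 ± 0.49 on the log2 scale, and that in the striatum/thalamus minus that in the cerebellum was -0.65 ± 0.49, both given without a test.

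**Figure D4:**
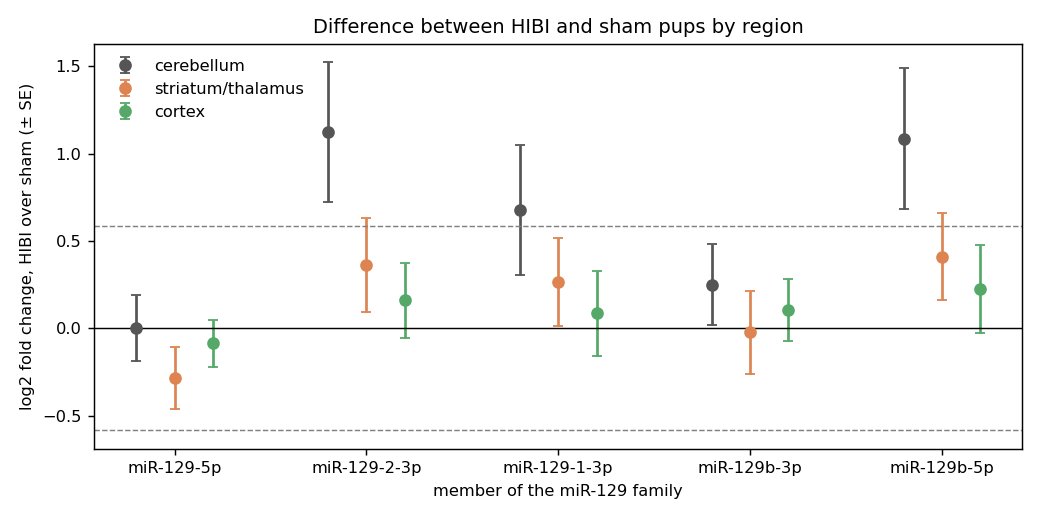
Log2 fold change of HIBI over sham with its SE for each member in the 3 regions, with 4 pups a group, where dashed lines mark a fold change of 1.5. In the cerebellum miR-129-2-3p is at 1.12 and miR-129b-5p at 1.09, and in the other regions all 5 members lie between -0.29 and 0.41.

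Markers of region and of other cells were summed in the same cerebellar libraries. The summed level of 4 miRNAs known to be higher in forebrain (miR-132-3p, miR-212-3p, miR-221-3p, and miR-222-3p) ranged from 1221 to 1747 CPM in sham and from 1713 to 1888 CPM in HIBI cerebella, with 0 of 4 called. That of 3 miRNAs higher in cerebellum (miR-206-3p, miR-195a-5p, and miR-497a-5p) ranged from 1198 to 1656 CPM in sham and from 762 to 1331 CPM in HIBI cerebella, with 0 of 3 called. For 5 miRNAs of choroid plexus and ciliated epithelium the range was 2558 to 10184 CPM in sham and 2764 to 4054 CPM in HIBI cerebella, with 0 of 4 tested called. Of 3 erythrocyte miRNAs, which ranged from 735 to 1325 CPM in sham and 579 to 787 CPM in HIBI cerebella, 2 were tested and miR-486a-5p was called lower. Of 3 skeletal muscle miRNAs, which ranged from 447 to 601 CPM in sham and 345 to 651 CPM in HIBI cerebella, miR-1a-3p was called higher. None of the miRNAs tested in the other lists, of 3 myeloid (2 tested), 1 endothelial, 2 oligodendrocyte, and 3 neuronal markers, was called there. In a longer list of 10 neuronal miRNAs, with examples named below, 2 of the 9 tested were called higher there. Over all miRNAs tested in the cerebellum, 7.83% were called. No marker had 0 counts over the 4 libraries of either cerebellar group, and miR-206-3p stands in both the muscle and the cerebellar list. The part of these markers in the difference of the family was not tested.

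These lists were drawn up with results of these data known, so their agreement with the dissected regions is a description. All 4 forebrain miRNAs passed as higher and all 3 cerebellar miRNAs as lower in the cortex and in the striatum/thalamus than in the cerebellum, in sham and in HIBI pups. Over all miRNAs tested, between 34% and 60.7% passed in these contrasts in either direction.

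The high values of HIBI pups 1 and 4 were not limited to the cerebellum. As a share of miR-129-5p, miR-129-2-3p in HIBI pups 1, 4, 5, and 7 was 43.6%, 42.6%, 18.4% and 12.2% in the cerebellum. It was 53.5%, 27%, 22.2% and 18% in the striatum/thalamus and 19.9%, 13.9%, 10.8% and 8.62% in the cortex. The order of the 4 pups was the same in all 3 regions. In sham pups 2, 3, 6, and 8 the shares were 11.2%, 12.8%, 18.5% and 12.1% in the cerebellum. They were 21.2%, 18.3%, 14.6% and 19.3% in the striatum/thalamus and 10.2%, 12.5%, 12.2% and 9.95% in the cortex, and the order of the sham pups changed with region. Between HIBI and sham the log2 difference was 0.60 in the striatum/thalamus (exact permutation p = 0.143, adjusted p = 0.286), with 3 of 4 HIBI pups above every sham pup, and 0.19 in the cortex (exact permutation p = 0.6, adjusted p = 0.706). The smallest p-value that 4 against 4 pups allow is 0.0286. The cerebellar difference was 0.92, given without a test. The libraries of pup 1 were also the shallowest of each region, with 1254185 counts for the cerebellum, 1272808 for the striatum/thalamus, and 1812883 for the cortex. The part of depth in this order was not tested.

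Within groups of region and injury, the members that lie on opposite DNA strands deviated together. Deviations of log2(CPM + 1) from the group means are described over the 24 libraries, which share pups and depth, so no p-value is given. MiR-129-2-3p and miR-129b-5p had a Pearson r of 0.96 (Spearman rho 0.95), and miR-129-5p and miR-129b-3p had 0.91 (rho 0.87). The opposite arms of Mir129-2, miR-129-5p and miR-129-2-3p, had an r of 0.20 (rho 0.13), and the arms of Mir129b had 0.31 (rho 0.33). The counts of miR-129-5p can come from Mir129-1 as well, so they do not stand for the arm of Mir129-2 alone. For miR-129-1-3p and miR-129-2-3p, near-identical arms of separate hairpins, r was 0.86, but 0.21 over the 12 sham and 0.96 over the 12 HIBI libraries. MiR-129-1-3p and miR-129b-5p, which share neither a hairpin nor a stretch of DNA, had an r of 0.86, but 0.43 over the sham and 0.93 over the HIBI libraries. The Mir129-1 hairpin matches miR-129-2-3p at 21 of 22 bases, so that arm is also nearly complementary to miR-129b-5p. Whether these members shared reads was not tested. Over the 12 sham libraries, r was 0.77 for miR-129-2-3p and miR-129b-5p, 0.82 for miR-129-5p and miR-129b-3p, 0.69 for the arms of Mir129b, and 0.36 for those of Mir129-2. Over the 12 HIBI libraries these were 0.99, 0.95, 0.23, and 0.16, so that the arms of Mir129b were close to the strand pairs in sham but not in HIBI libraries.

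**Figure D5:**
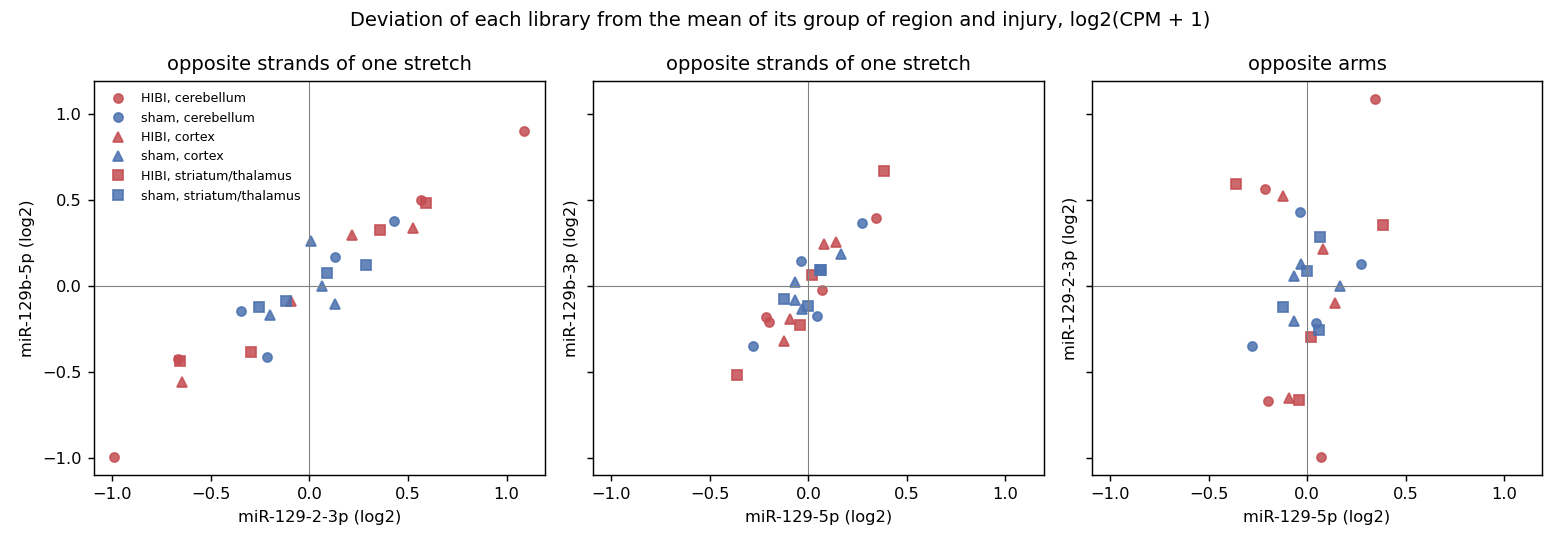
Deviation of each library from the mean of its group of region and injury on the log2 scale, for 2 pairs from opposite strands (left and middle) and for opposite hairpin arms (right), with a point per library. The points of the strand pairs lie along a line (r of 0.96 and 0.91) and those of the arms are scattered (r of 0.20).

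The antisense members stayed at a low share of their partners in every library. MiR-129b-5p ranged from 4.70% to 8.05% of miR-129-2-3p, and miR-129b-3p from 2.83% to 5.92% of miR-129-5p, with a count of 0.5 added to each. Whether reads could be counted on the miRNA of the opposite strand is not given in the sources used here, and without strand the reads of such a pair cannot be told apart. For comparison, chosen after the values were seen, the tables held 7 other pairs of miRNAs that overlap by at least 15 bases on opposite strands and whose scarcer partner averaged above 1 CPM. In these the scarcer partner had between 0.0859% and 94.0% of the counts of the other, with a median of 1.89%. With CPM by library total, r within groups ranged from -0.23 to 0.76 in the 7 pairs and was 0.96 and 0.90 in the pairs of the miR-129 family. The pairs were not matched for level. The scarcer partner averaged 74.7 and 291 CPM in the family pairs. It averaged 323 CPM in miR-3074-5p with miR-24-3p, which had a share of 7.20% and an r of 0.74. In the rest it averaged at most 5.89 CPM, so counting error weighs more on their r.

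Among 374 other miRNAs, those with the level most like each member over the 24 libraries were found by Pearson r of log2(CPM + 1). For miR-129-5p they were miR-3059-5p (0.86), miR-543-3p (0.86), and miR-125b-5p (0.85). For miR-129b-3p they were miR-344d-3p (0.87), miR-543-3p (0.87), and miR-3059-5p (0.86), so that 2 of 3 were shared with miR-129-5p. For miR-129-2-3p they were miR-1224-5p (0.85), miR-433-3p (0.80), and miR-667-3p (0.80), and for miR-129b-5p miR-667-3p (0.87), miR-1224-5p (0.86), and miR-770-3p (0.85), with 2 of 3 shared as well. For miR-129-1-3p they were miR-193b-3p (0.91), miR-326-3p (0.80), and miR-673-5p (0.80), shared with no other member. After the group means were removed, r fell to 0.15 for miR-3059-5p with miR-129-5p but was 0.83 for miR-193b-3p with miR-129-1-3p and 0.81 for miR-667-3p with miR-129-2-3p.

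Other miRNAs with roles in neurons are given beside the family. The lists here and in the next paragraph were also drawn up with results of these data known, so their counts are a description. Of 6 miRNAs tied to synaptic scaling and dendritic translation (miR-134-5p, miR-485-5p, miR-218-5p, miR-92a-3p, miR-186-5p, and miR-124-3p), none was called between HIBI and sham in any region. Their median log2 fold change was 0.11 in the cerebellum, as over all miRNAs tested there. It was -0.05 in the striatum/thalamus (-0.03 over all) and -0.04 in the cortex (-0.02 over all). Between cortex and striatum/thalamus in sham pups 1 of the 6 was higher and 2 were lower, beside 30.8% of all miRNAs tested in either direction. The lower ones, as miR-129-2-3p, were miR-485-5p (-1.01 ± 0.24, adjusted p = 0.00266, edgeR) and miR-134-5p (-0.79 ± 0.19, adjusted p = 0.00281), which regulates dendritic spines. The higher one was miR-218-5p (1.25 ± 0.27, adjusted p = 0.00133, edgeR). In HIBI pups 2 were higher and 2 lower, beside 36.1% of all miRNAs tested, with a median of -0.04 beside -0.02 over all.

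Of 10 neuronal miRNAs, 2 of which stand in the list above, 9 were tested. Between cortex and striatum/thalamus in sham pups, 5 of the 9 were higher in the cortex and none was lower, beside 30.8% of all miRNAs tested in either direction. The median log2 difference was 0.83 (0.02 over all miRNAs tested). Examples were miR-128-3p (1.56 ± 0.23, adjusted p = 5.04e-05, edgeR) and miR-218-5p. In HIBI pups 4 were higher and 1 was lower, beside 36.1% of all, with a median of 0.87. After HIBI none of the 9 was called in the striatum/thalamus or the cortex, beside 2.75% and 3.41% of all. In the cerebellum 2 were called higher, beside 7.83% of all in either direction. They were miR-7a-5p (log2 fold change 1.01 ± 0.40) and miR-137-3p (1.77 ± 0.70), both with an adjusted p-value of 0.432 (edgeR).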

How the data were processed

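MiRNA-Seq libraries of 3 right brain regions from 8 pups (4 HIBI, 4 sham) were analysed. According to the methods of the study, the authors aligned reads to mature mouse miRNAs of miRBase with bowtie2, and the counts per miRNA and library were deposited without normalization; versions, strand setting, and treatment of reads matching several miRNAs are not given in the sources used here. The tables also held fold changes and p-values of the authors' own comparisons, which were not used. The 20 castor bean entries, with 0.000156% of counts, were left out.

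Libraries were grouped by the labels. Counts were tested with edgeR 4.0.16 in R 4.3.3 (quasi-likelihood test, TMM scaling, average above 10 CPM). HIBI was tested against sham over the 8 libraries of a region with unadjusted p-values, as the study did. Regions and the interaction were tested in 1 model of 24 libraries with Benjamini-Hochberg adjustment. Log2 ratios of counts, with 0.5 added to each, were compared with exact permutation tests in scipy 1.17.1. Sequences and hairpins came from RefSeq and gene positions from GENCODE on GRCm38. The scripts were tested on simulated data.

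The members and lists were chosen with earlier results of these data known. The text names the 5 members, the 3 miRNAs most alike to each, and up to 2 examples of a list in each direction. Pups gave all 3 regions, so regions are paired by animal, although tested without a block. Deviations of 379 miRNAs from the group means correlated between regions of a pup with median r of 0.18 to 0.32, above 0.1 in 6 to 7 of 8 pups. No libraries were duplicates. Alternatives were library-size and upper-quartile scaling, DESeq2 1.42.0, edgeR's exact test, other filters, the pup as a block, single injury groups, another added count, and each pup left out. The model of 24 libraries for HIBI against sham, the 2 ratios to miR-129-5p of miR-129b-3p and miR-129-1-3p, and the scan of antisense pairs were added after seeing the data.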

Additional observations from a re-analysis of the deposited data

Results flagged for a closer look

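In 1 of 54 groups of 4 libraries examined, a single library stood apart from the rest by Dixon's criterion, which chance meets in about 1 in 20 groups. It was the striatum/thalamus of HIBI pup 1, where the log2 ratio of miR-129b-3p to miR-129b-5p was 0.68. The other HIBI pups were between 1.90 and 2.13. This library was also the shallowest of its region, with 1272808 counts, and the part of depth in the value was not tested. Of 15 differences between regions that were examined, none had all pups of one injury group on one side of 0 and all of the other on the opposite side.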

How the results depend on the processing

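Over the alternatives, 819 of 885 values of member fold changes, 200 of 216 of ratios, and 132 of 149 counts of members called were classed as kept. Tested values had to keep their direction and side of the threshold, and counts to stay within 1.5 times. No ratio between HIBI and sham passed in the main run. With a pup left out, these groups are too small for the exact permutation test to pass the threshold. Such values could fail only by a change of direction, so their count as kept does not show that the test result was stable. Ratios in single injury groups had to keep direction and stay within the SD. Fold changes after HIBI in the cerebellum, and injury effects compared with it, had only to move by less than the SD between libraries. Of these, only a called member had to keep its sign, so a lost call or a changed sign near 0 could count as kept. Causes for values not kept were not tested unless stated. MiR-129b-3p after HIBI in the striatum/thalamus changed from -0.02 to 0.010 with library size, 0.0049 with upper-quartile scaling, 0.026 with DESeq2, 0.0049 with an average above 1 CPM, and 0.079 with 1 model of 24 libraries. The ratio of miR-129b-3p to miR-129b-5p, striatum/thalamus minus cerebellum, was -0.032 in sham pups. In HIBI pups, cortex minus cerebellum held 1 called member with library size and 1 with HIBI libraries alone; striatum/thalamus minus cerebellum held 2 with library size, 2 above 1 CPM, 2 without a filter, and 2 with HIBI libraries alone; cortex minus striatum/thalamus held 1 with HIBI libraries alone, where fewer samples set the spread.

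The ratio of miR-129-2-3p to miR-129-5p, cortex minus cerebellum, was -0.63 with and without the pup as a replicate block. It crossed the threshold with the block, but rests on the cerebellar libraries by which the family was chosen and is a description. Beside the 3 calls of members given with the results, the block changed no other call of a member, and pairing by pup brought the ratio of miR-129b-3p to miR-129b-5p between cortex and striatum/thalamus past the adjustment. For cortex minus cerebellum, also a description, pairing brought the ratio of miR-129b-3p to miR-129b-5p past the adjustment as well. There the ratio of miR-129b-5p to miR-129-2-3p passed without pairing but not with it.

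With each pup left out, called members ranged from 0 to 3 for HIBI in the cerebellum, 0 to 2 in the striatum/thalamus, 0 to 3 between cortex and striatum/thalamus in sham pups, and, in HIBI pups, 0 to 3 for cortex and 2 to 4 for striatum/thalamus against cerebellum. Log2 fold changes after HIBI ranged from -0.19 to 0.22 for miR-129b-3p in the striatum/thalamus. In the cortex they ranged from -0.060 to 0.28 for miR-129-1-3p, -0.012 to 0.35 for miR-129-2-3p, and -0.011 to 0.22 for miR-129b-3p. In HIBI pups miR-129b-5p ranged from -0.30 to 0.081 for cortex minus cerebellum and miR-129-1-3p from -0.28 to 0.11 for striatum/thalamus minus cerebellum. The injury effect in cortex minus striatum/thalamus ranged from -0.42 to 0.0097 for miR-129-1-3p and -0.066 to 0.24 for miR-129b-3p.

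Log2 ratios after HIBI in the cortex ranged from -0.030 to 0.37 for miR-129-2-3p to miR-129-5p, -0.21 to 0.16 for miR-129-1-3p to miR-129-2-3p, and -0.23 to 0.11 for miR-129b-3p to miR-129b-5p, and in the striatum/thalamus from -0.0074 to 0.11 for miR-129b-5p to miR-129-2-3p. Cortex minus cerebellum ranged from -0.72 to -0.50 for miR-129-2-3p to miR-129-5p and from 0.47 to 0.66 for miR-129b-3p to miR-129b-5p. For the latter ratio, striatum/thalamus minus cerebellum ranged from -0.050 to 0.18 and cortex minus striatum/thalamus from 0.42 to 0.54.

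Over all miRNAs, calls after HIBI numbered 34 in the cerebellum (61 above 1 CPM, 106 without a filter, 18 to 82 with a pup left out), 12 in the striatum/thalamus (19 with DESeq2, 19 above 1 CPM, 54 without a filter, 19 with 1 model, 5 to 38 with a pup left out), and 14 in the cortex (41 above 1 CPM, 86 without a filter). In the cerebellum 47.1% of calls were higher, against 80.4% with library size, 15.2% with upper-quartile scaling, and 61.2% with 1 model. The median of all miRNAs moved by 0.16 with library size and by -0.13 with upper-quartile scaling. It was 0.107 in the main run and 0.0889 with 1 model. The part of the median in these shares was not tested. With 4 pups a group, small differences could not be seen, and the count of 56 for miR-129b-5p limits its precision.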
